A study of Macaca mulatta with 2 samples.

Results

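The genes described here are 10 markers of vascular endothelium, the cells that line blood vessels: PECAM1, CDH5, ESAM, KDR, FLT1, TEK, TIE1, ENG, VWF and EGFL7. They were taken as every gene probe that carried one of these names in the array annotation, which gave 17 probes and 37 spots per array, of 21495 named genes, 50238 probes and 51538 gene spots in all. Their levels were read from 2 one-colour arrays of human probes hybridised with RNA from primary Sertoli cell cultures of rhesus macaque (Macaca mulatta), 1 array per group. The pubertal array held cells from testes of males aged 18 to 22 months, whose puberty had been induced with gonadotropin-releasing hormone through an indwelling catheter (2 min pulses of 0.15 µg/min, repeated at intervals of 3 h over a period of 4 to 5 weeks). The infant array held cells from testes of males younger than 3 months. Before RNA extraction, the cells of either group had received follicle-stimulating hormone at 5 ng/ml together with testosterone at 100 nM for 12 h, so no untreated cells were compared. With 1 array a group no difference could be tested, and animal, culture, age and the hormone pulses cannot be told apart. The labels do not say how many animals gave cells to a culture.

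Endothelial cells form the inner wall of vessels and hold together through adhesion molecules at their borders, of which VE-cadherin (CDH5), PECAM1 and ESAM are examples. Their growth and survival depend on receptor kinases, one family for vascular endothelial growth factor (VEGF), with KDR and FLT1, and one for the angiopoietins, with TEK and its partner TIE1. In the testis, vessels run through the interstitium between the seminiferous tubules, outside the compartment in which Sertoli cells lie. Several of the genes are known from other cells too: PECAM1 from leukocytes and platelets, VWF from megakaryocytes, FLT1 from monocytes and ENG from stromal cells and macrophages.

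All probes of these genes were 60 bases long, and the files gave the position of all 17 as unmapped. The probes below were judged to be coding from knowledge of the human proteins, not placed on a transcript. They are shown because VWF and ENG were seen on both arrays with them, whereas TIE1, KDR and FLT1 were seen on neither. Capitals mark the whole codons of the frame taken as coding, read 5′ to 3′, in which no stop codon occurred.
VWF, seen on both arrays: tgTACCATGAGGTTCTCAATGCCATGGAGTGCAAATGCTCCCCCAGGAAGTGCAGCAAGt
ENG, seen on both arrays: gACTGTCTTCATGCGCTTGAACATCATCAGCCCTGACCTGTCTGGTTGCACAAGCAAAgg
TIE1, seen on neither array: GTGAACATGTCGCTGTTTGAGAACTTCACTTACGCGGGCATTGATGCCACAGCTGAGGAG
KDR, seen on neither array: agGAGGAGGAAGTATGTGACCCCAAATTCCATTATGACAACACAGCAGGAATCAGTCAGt
FLT1, seen on neither array: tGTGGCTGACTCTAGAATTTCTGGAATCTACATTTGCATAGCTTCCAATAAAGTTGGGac
FLT1, probe annotated to another transcript, seen on neither array: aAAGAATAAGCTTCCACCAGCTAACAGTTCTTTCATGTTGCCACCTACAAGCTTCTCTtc

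A spot was counted as detected where the scanner software flagged it well above background. This held for 54.9% of gene spots with pubertal RNA and 54.8% with infant RNA, and no gene spot was saturated. Signals are the scanner software's processed intensities, and levels are the log2 of a signal over its array's 75th percentile, which was 406 intensity units for pubertal cells and 381.5 for infant cells. Differences are pubertal minus infant on the log2 scale, and the error given with one is that of the scanner software, which covers the spots and not the animals or cultures. Its median over all genes was 0.21. Human probes pair less well with monkey RNA where the sequences differ, so a missing signal does not show that the RNA is missing. A gene of the same symbol exists in the macaque RefSeq gene table for 10 of the 10 names.

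The endothelial set was only partly seen. Well above background on both arrays were 5 of 10 genes (PECAM1, ESAM, ENG, VWF and EGFL7), 1 on the pubertal array alone (TEK), 0 on the infant array alone and 4 on neither (CDH5, KDR, FLT1 and TIE1). Of all named genes, 66.3% were detected on both arrays, 4.21% on the pubertal array alone, 3.14% on the infant array alone and 26.3% on neither. The 4 that were missing include VE-cadherin and both VEGF receptors, which are among the defining markers of endothelium, so the label of the set rests on the other genes. By probe, 8 of 17 were detected with pubertal RNA and 6 with infant RNA. On both arrays 6 of 17 (35.3%) were detected, against 50.9% of all gene probes. The probes detected with pubertal RNA alone were that of TEK and the dimmest of PECAM1. In RNA from a whole culture, more cells of a kind and more RNA per cell cannot be told apart.

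**Figure D1:**
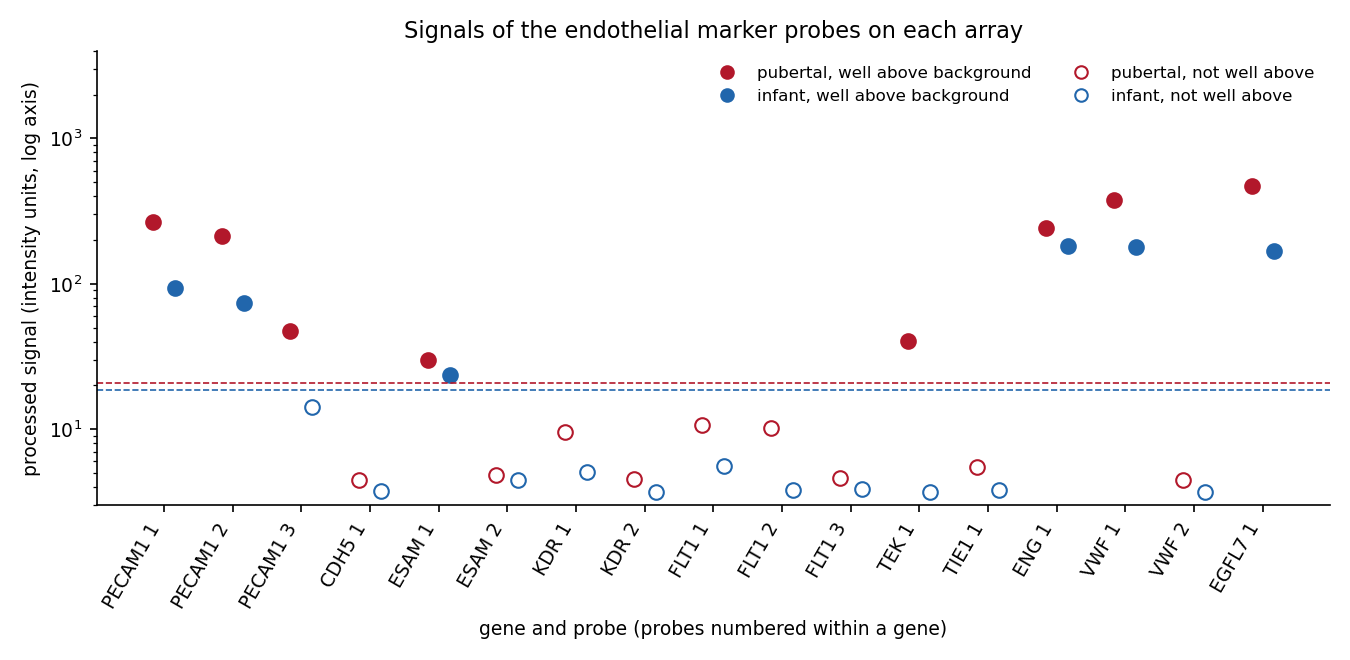
Processed signal (intensity units, log axis) of each probe of the 10 genes on the pubertal array (red, left of each pair) and on the infant array (blue, right). Filled points were well above background, open points were not, and the dashed lines are the lowest detected signals, 20.8 for pubertal and 18.5 for infant cells. PECAM1, ESAM, ENG, VWF and EGFL7 each have a probe with both points filled, and all points of CDH5, KDR, FLT1 and TIE1 are open.

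Among the adhesion molecules, PECAM1 was higher on the pubertal array with every probe, ESAM differed by less than its error, and CDH5 was not seen. PECAM1 (CD31) is an immunoglobulin-family protein that joins neighbouring endothelial cells and guides leukocytes between them. It was by far the most densely sampled of the 10 genes, with 2 probes printed in 11 spots each and another printed once. For the brighter of the replicated probes, 9 spots without an outlier flag had processed signals of 240.3 to 289 (median 274) in pubertal cells, against 83.9 to 104 (median 93.3) in infant cells. The other replicated probe gave 195 to 231 (median 206) over 11 spots in pubertal cells, against 52.8 to 86.9 (median 75.1) in infant cells. The spots of the arrays did not overlap for either probe, which shows how well the print repeats and says nothing of other cultures.

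The differences of the replicated PECAM1 probes were 1.42 ± 0.10 (SD over 9 spots) and 1.45 ± 0.21 (SD over 11 spots), which makes 2.68-fold and 2.73-fold. Single spots ranged from 1.17 to 1.86. The highest of these came from the slide's edge, where spots in row 1 and column 1 had infant signals of 58.7 and 52.8, below the other 9 spots of that probe, the lowest of which had 65.2. Without these 2 edge spots the probe's difference was 1.37 ± 0.14 (SD over 9 spots). The probe printed once was dimmer, with 47.4 in pubertal cells, against 14.2 in infant cells, where it was not well above background. By that probe PECAM1 was at least 2.41-fold higher in pubertal cells. Averaged over the replicated probes, PECAM1 was higher by 1.43 ± 0.22 (software error), or 2.70-fold, and 3.63% of all genes measured on both arrays had a difference at least as high.

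**Figure D2:**
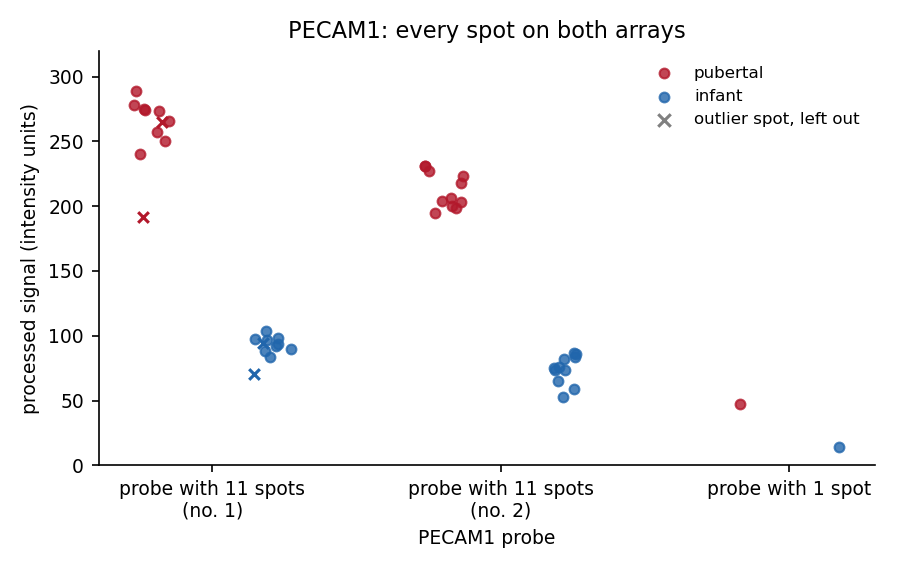
Processed signal (intensity units) of every PECAM1 spot on the pubertal array (red, left) and on the infant array (blue, right), for the 2 probes with 11 spots each and the probe with 1 spot. Crosses are spots that an outlier flag removed. The pubertal spots of the replicated probes lie between 195 and 289 apart from a removed spot, all above the infant spots.

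ESAM, a junction protein of endothelial cells and platelets, had 2 probes with unlike signals. The detected probe gave 30.1 in pubertal and 23.7 in infant cells, close to the lowest detected signals. Its difference was 0.26 ± 0.38 (software error), so the arrays could not be told apart by ESAM. The other probe gave 4.83 in pubertal and 4.49 in infant cells and was detected on neither array. That probe is poor in G and C (20.0%), as few others are: 0.352% of all gene probes had as little or less. Among 615 probes with at most 25% G and C, 13.0% were detected on both arrays, against 55.7% of 30954 probes with 40 to 60%. The other endothelial probes detected on neither array had 35.0% (FLT1) to 53.3% (VWF). Those detected on both arrays had 38.3% (PECAM1) to 68.3% (EGFL7). Whether its low share of G and C kept the ESAM probe from being detected was not tested. CDH5, the cadherin of endothelial junctions, had 1 probe, with 4.49 in pubertal and 3.73 in infant cells. Where a signal does not exceed background the software puts a surrogate in its place, so the order of such low values carries no information.

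The VEGF receptors were below detection on both arrays. KDR (VEGFR2), which carries most of the growth signal of VEGF in endothelium, had signals of 9.61 and 4.51 with its 2 probes in pubertal cells, against 5.05 and 3.71 in infant cells. FLT1 (VEGFR1), which binds VEGF tightly and, as a soluble form, holds it back, had 3 probes. They gave 10.7, 10.2 and 4.59 in pubertal cells, against 5.59, 3.82 and 3.87 in infant cells. The dimmest on the pubertal array is the probe annotated to another transcript, and its spot also lay in an area of the slide where neighbouring spots differed strongly between the arrays. A weaker flag of the software, for signals positive and significant against background, was set for 1 KDR probe and 1 FLT1 probe on both arrays, and for another FLT1 probe on the pubertal array alone.

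The angiopoietin receptors differed from each other in detection. TEK (TIE2), the receptor itself, gave 40.6 in pubertal cells, well above background, against 3.73 in infant cells, which was not. Set against the lowest detected signal of the infant array, TEK was at least 2.06-fold higher in pubertal cells. This bound, 1.04 on the log2 scale, makes no allowance for the software error of the pubertal signal, which was 0.21. Of the 904 genes detected on the pubertal array alone, 53.4% had a bound of at least 2-fold. The TEK bound fell below 2-fold with normexp background correction (0.42 on the log2 scale), with quantile normalization (0.89) and with scaling on the median (0.88). TIE1, which has no established ligand of its own and tunes TEK signalling, gave 5.48 in pubertal and 3.82 in infant cells and was well above background in neither, though the weaker flag was set in pubertal cells. Each of these genes had 1 probe and 1 spot.

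ENG, endoglin, is a co-receptor for ligands of the transforming growth factor beta family and is abundant on endothelium that is forming new vessels. Its probe gave 242 in pubertal and 183 in infant cells. The difference was 0.32 ± 0.21 (software error), or 1.25-fold, and 25.4% of all measured genes had a difference at least as high.

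The secreted products VWF and EGFL7 were higher on the pubertal array. VWF, von Willebrand factor, is stored in endothelial granules and in platelets and tethers platelets to damaged vessel walls. Its detected probe gave 374 in pubertal cells, against 178 in infant cells, a difference of 0.99 ± 0.21 (software error), or 1.98-fold, just short of 2-fold. The other VWF probe gave 4.48 in pubertal and 3.72 in infant cells and was detected on neither array. EGFL7, a matrix protein that endothelial cells secrete as vessels form, gave 474 in pubertal cells, against 169 in infant cells. It was higher by 1.40 ± 0.21 (software error), or 2.64-fold, from 1 spot per array, and 3.81% of all measured genes had a difference at least as high. Its only probe was rich in G and C (68.3%): 99.1% of all gene probes had as much or less. Whether this affected the EGFL7 value was not tested.

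**Figure D3:**
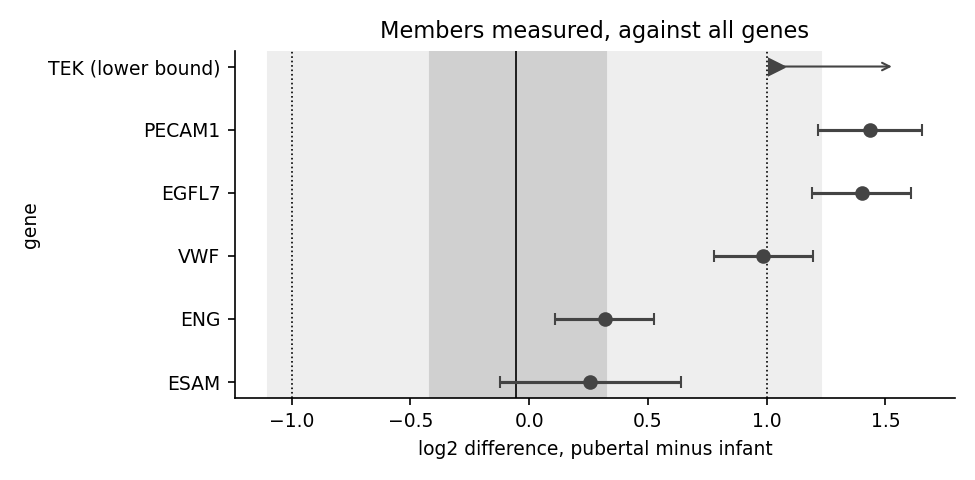
Log2 difference (pubertal minus infant) of the 5 genes detected on both arrays, with the software error as bars, and the lower bound for TEK as an arrow. The shaded bands hold the central 50% and 90% of all genes measured on both arrays, the solid line is their median of -0.06, and dotted lines mark 2-fold. PECAM1 and EGFL7 lie beyond the 95th percentile of all genes, at 1.23, and ENG and ESAM lie in the central band.

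Over the set, 2 of the 5 measured genes (PECAM1 and EGFL7) exceeded 2-fold in favour of pubertal cells and 0 in favour of infant cells. Over all 14243 genes measured on both arrays, 7.31% did so for pubertal and 6.32% for infant cells. VWF joined them at a limit of 1.5-fold, which 15% of all genes passed, and none of the 5 reached 4-fold, which 1.67% passed. The difference was positive for 5 of the 5 genes, compared with 45.7% of all genes. Their median difference was 0.99, and that of all genes was -0.06. The sum of signals over the 6 detected genes, each as a multiple of the array's 75th percentile, was 3.29 in pubertal and 1.62 in infant cells. The infant sum includes the undetected signals of TEK and of the dimmest PECAM1 probe.

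These values depend on the common scale of the arrays. With arrays scaled on their medians, the median of all genes was -0.22, against -0.06, which gave 782 genes higher and 1311 lower, in place of 1041 higher and 900 lower. PECAM1 and EGFL7 exceeded 2-fold there too, at 1.27 and 1.24. Scaling on the spike-in control probes moved the median of all genes to 0.94, with 6455 genes higher and 125 lower, and then all 5 measured endothelial genes were past 2-fold (ENG 1.31, ESAM 1.25, VWF 1.98). With normexp background correction and an offset of 50, PECAM1 was at 0.94, below 2-fold, and EGFL7 at 1.14. VWF was at 1.05 with the percentile taken over detected probes and at 1.01 with loess normalization, past 2-fold with either.

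**Figure D4:**
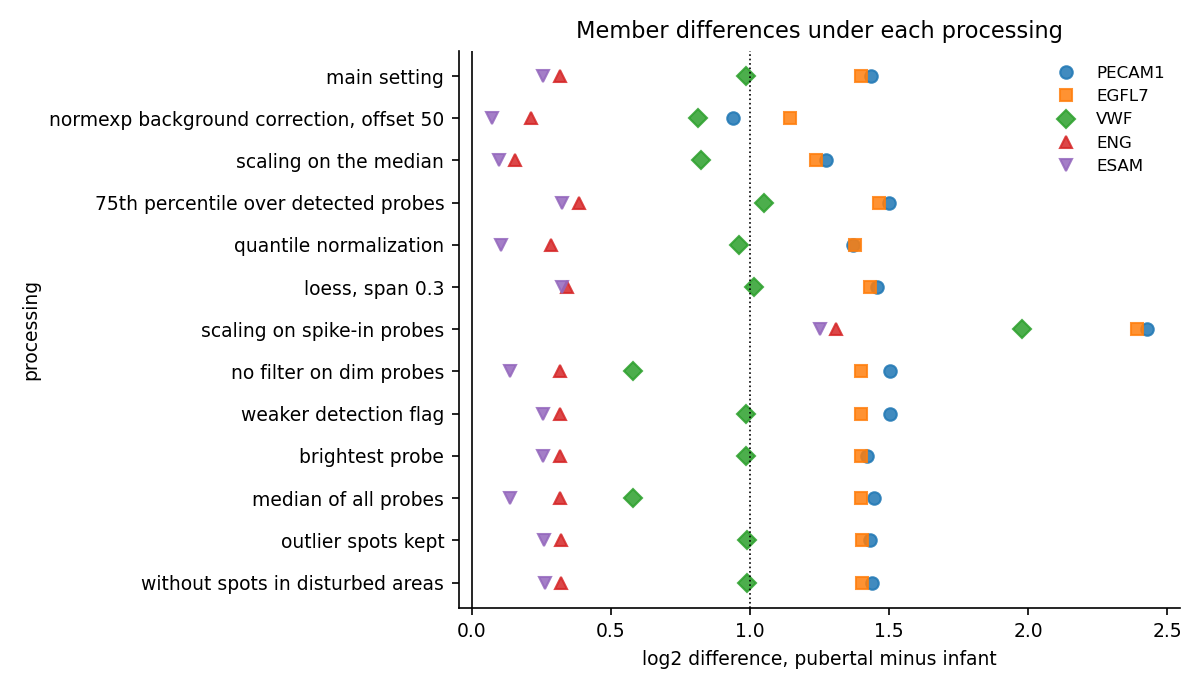
Log2 difference (pubertal minus infant) of the 5 genes detected on both arrays under each way of processing, from the main setting at the top. The solid line is 0 and the dotted line 2-fold. Every point lies above 0, PECAM1 drops below 2-fold with normexp correction (0.94), and scaling on spike-in probes moves all of them to the right.

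A wider list of 40 endothelial names had a median closer to that of all genes. Of its 37 names on the array, 18 were measured on both arrays, 2 were detected on the pubertal array alone and 17 on neither. Endomucin (EMCN) and the guidance receptor ROBO4, both found mainly on endothelium, were among those on neither. The median difference was 0.17, with 2 genes above 2-fold and 1 below -1 on the log2 scale. CD34, a sialomucin of endothelium and blood progenitors, was higher by 1.77 ± 0.25 (software error), with levels of -1.35 in pubertal and -3.12 in infant cells, and its other probe was not detected. ICAM2, an adhesion molecule of endothelium, platelets and leukocytes, was higher by 1.23 ± 0.32. With normexp correction these came to 0.92 and 0.41, below 2-fold. TAL1, a transcription factor of blood and endothelial progenitors, was at -1.04 ± 0.33, and at -0.05 with spike-in scaling.

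The endothelial factor SOX18 was at 0.81, below 2-fold, from a spot in a disturbed area of the slide. The tight junction protein CLDN5 was at 0.68 over 2 probes that read 1.17 and 0.18. Detection on the pubertal array alone was found for the leukocyte-binding selectin SELE (at least 1.41-fold higher) and the receptor ELTD1 (at least 1.47-fold). They are named because they were the only such genes of the wider list, 2 of 37 on the array, against 4.21% of all named genes. Their pubertal levels of -3.87 and -3.81 were near the lowest detected, -4.29.

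Most genes of the VEGF ligand and co-receptor list had lower values in pubertal cells. Of the 8 names of that list on the array, 7 were measured, with a median difference of -0.93, 3 of them below -1 and 0 above 1. VEGFA, the main ligand of KDR, was at -1.08 ± 0.22 (software error), and its 4 probes ranged from -1.23 to -0.92. VEGFB, a ligand of FLT1, was at -1.16 over 2 probes, and VEGFC, a ligand of KDR and of the lymphatic receptor FLT4, at -0.93. PGF, which binds FLT1 alone of these receptors, was at 0.21 ± 0.21, a difference the size of its error. The co-receptor NRP1 was at -1.41, but its 3 detected probes spread from -2.61 to -0.77. These directions depend on the scale: with spike-in scaling VEGFA was at -0.08, VEGFB at -0.16 and VEGFC at 0.06, and the median of the list was 0.06.

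Angiopoietins were not detected: ANGPT1 and ANGPT2, the activating and the context-dependent ligand of TEK, were well above background on neither array with 3 probes each. In the angiopoietin list only the adaptor GRB14, at 0.35, was measured, 1 of 6. The partners of ENG were mostly detected, 11 of 13 on the array, with a median of -0.43, or 0.56 with spike-in scaling. ID1 and ID3, which are induced by bone morphogenetic protein signalling through SMAD proteins, were at 1.33 and 0.82, while the ligand TGFB3 was at -1.45 and the receptor TGFBR1 at -0.90, which turned to 0.09 with spike-in scaling. Adhesion partners of CDH5, PECAM1 and ESAM were detected in full, 10 of 10, with a median of -0.12, or 0.87 with spike-in scaling. Beta-catenin CTNNB1 was at -0.73 and the junction molecule F11R at -0.76, both above 0 with spike-in scaling (0.27 and 0.24), and JAM3 was at 0.82. CTNNA1 read 1.96 as a mean of probes at 4.12 and -0.20, so its value is uncertain.

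**Figure D5:**
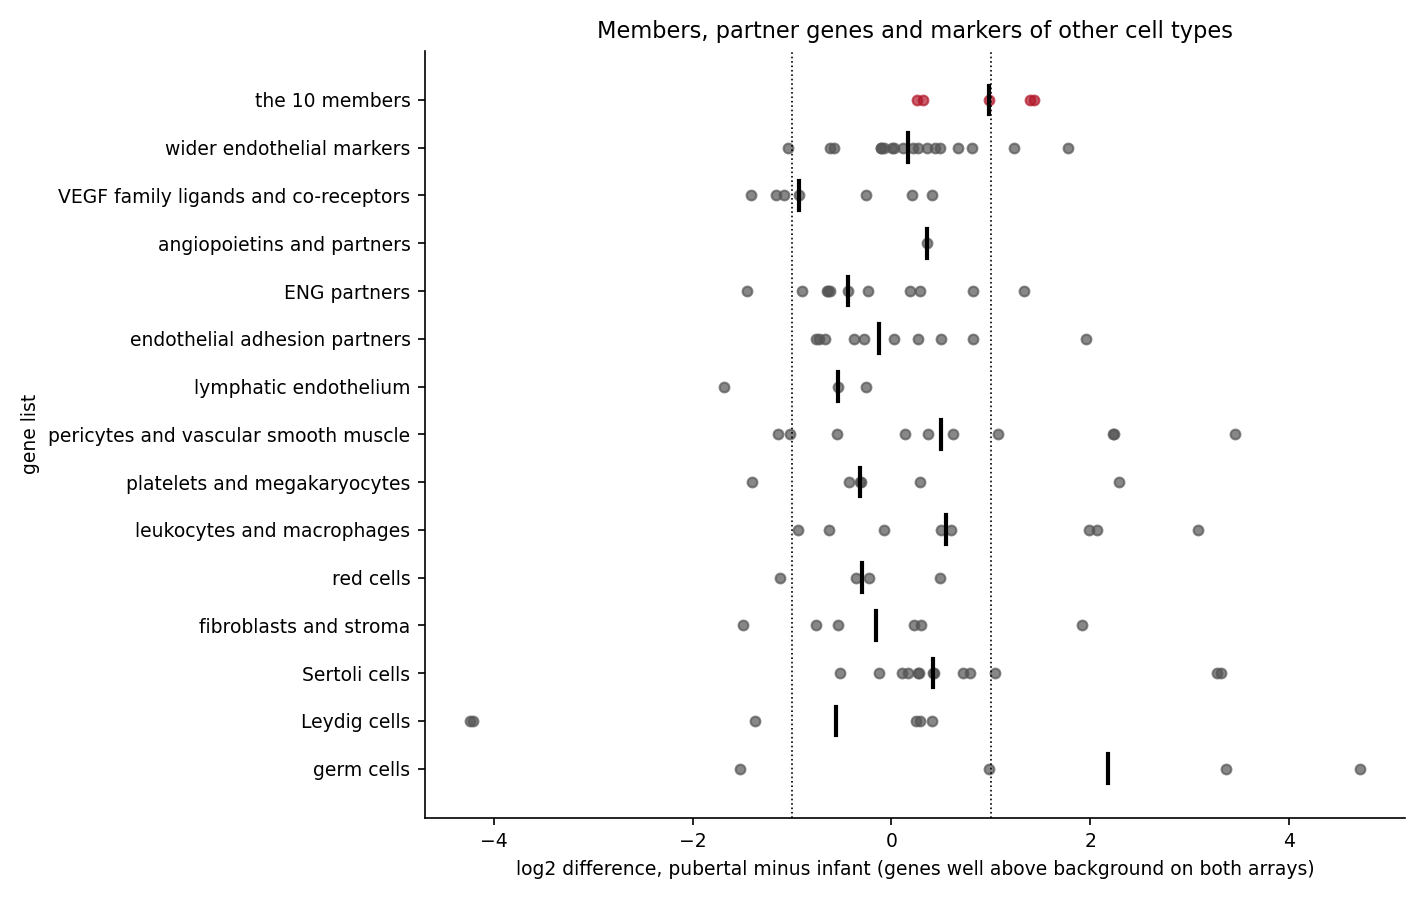
Log2 difference (pubertal minus infant) of each gene measured on both arrays, for the 10 genes (red, top) and for lists of partner genes and markers of other cell types (grey). Black bars are list medians and dotted lines mark 2-fold. The endothelial genes have a median of 0.99, the VEGF list -0.93, and the leukocyte list holds genes up to 3.08.

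Markers of other cells that share these genes also differed between the arrays. Of 13 leukocyte and macrophage markers on the array, 11 were detected in pubertal and 9 in infant cells, and their summed level was 5.36 in pubertal and 1.51 in infant cells, in multiples of the 75th percentile. Among the 8 measured on both, 3 exceeded 2-fold and 0 were below -1 on the log2 scale, with a median of 0.55. The macrophage scavenger receptor CD163 was at 3.08, the receptor CSF1R at 2.07 and the pan-leukocyte phosphatase PTPRC at 1.99, each with 1 measured probe, whereas CD68 was at -0.94 (0.06 with spike-in scaling). CD163 had the highest level of the list on both arrays (1.66 pubertal, -1.43 infant), so it weighs most in the sums. LYZ was detected on neither array. These cells are known to carry PECAM1, and their part in the PECAM1 difference was not tested.

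Platelet and megakaryocyte markers, which belong to cells that share VWF and PECAM1, went in both directions. Of 11 on the array, 7 were detected on each array, with a summed level of 29.8 in pubertal and 25.9 in infant cells. The median over 6 was -0.31, or 0.68 with spike-in scaling, with GP1BB at 2.29, ITGB3 at -1.40, ITGA2B at 0.29 and GP9 at -0.32, and PPBP, GP5 and GATA1 were detected on neither. Another probe of ITGA2B was detected on the infant array alone, so its probes disagree. Red cell genes had a summed level of 0.756 in pubertal cells and above 1 in infant cells. Their median over 4 genes was -0.29, or 0.70 with spike-in scaling. HBA1 was at -1.12 (-0.13 with spike-in scaling) and HBA2 at 0.49. HBB was well above background on the infant array alone, by a bound of 1.12-fold. The part of blood cells in the VWF difference was not tested.

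Mural and stromal cells lie beside endothelium in tissue. Of 13 pericyte and smooth muscle markers, 10 were measured, 4 above 2-fold and 2 below -1, with a summed level of 160.4 in pubertal and 96.6 in infant cells. ACTA2 was at 3.46, MYH11 at 2.24 and RGS5 at 2.23. These genes also mark the peritubular myoid cells of the testis. PDGFRB was at -0.55 (0.44 with spike-in scaling) and NOTCH3 at -1.14. Of 8 stromal markers, which belong to cells that share ENG, 6 were measured with a median of -0.15. COL1A2 was at 1.92, DCN at -1.49, COL3A1 at -0.76 and PDGFRA at -0.53, of which COL3A1 and PDGFRA were above 0 with spike-in scaling (0.24 and 0.46). LUM was detected on the pubertal array alone and was at least 6.73-fold higher there. Their summed level was 54.4 in pubertal and 45.6 in infant cells. The part of these cells in the ENG, VWF and EGFL7 values was not tested.

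The cultures carried the markers of Sertoli cells that the labels call for. All 13 on the array were measured on both, with a median of 0.42 and a summed level of 401 in pubertal and 184 in infant cells. TF and CLU weigh most in the pubertal sum. The brighter TF probe had a level of 8.29 in pubertal and 5.10 in infant cells, and CLU had 7.07 and 6.36. AMH, TF, SOX8 and FSHR were at 3.28, 3.32, 1.05 and 0.79. SOX8 is uncertain, as its 2 probes read 1.77 and 0.32. FSHR was dim, with levels of -3.26 in pubertal and -4.05 in infant cells. INHA at -0.52 and GATA4 at -0.13 were negative, against 11 positive. Of 11 germ cell markers, 7 were detected in pubertal and 5 in infant cells, and the median over 4 measured on both was 2.18. DAZL was at 4.72, MAEL at 3.37 and UCHL1 at -1.52. SYCP3, DDX4 and KIT were detected on the pubertal array alone and were at least 34.5-fold, 13.2-fold and 7.83-fold higher there. The summed level of the germ cell list was 19.7 in pubertal and 35.1 in infant cells, and without UCHL1, left out after its values were seen, it was 7.73 in pubertal and 0.749 in infant cells. Leydig cell markers, from the interstitium where the vessels lie, had a median of -0.56 over 6 genes, 3 of them below -1, and a summed level of 86.4 in pubertal and 185 in infant cells. With spike-in scaling that median was 0.43. Among them STAR was at -4.24, CYP17A1 at -4.21 and CYP11A1 at -1.37, negative with each alternative. The other 3 were positive: HSD3B1 at 0.29, HSD3B2 at 0.25 and INSL3 at 0.41, whose 2 probes read 0.85 and -0.03. STAR weighs most in the infant sum, with a level of 6.65 in infant and 2.41 in pubertal cells.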

How the data were processed

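The deposited files hold the intensity of each spot as read by Agilent Feature Extraction 10.5.1.1, a version named in the file headers. The processed intensity had been background-subtracted and detrended on each array, with surrogates for low values, per the file headers, which record no step that brings the arrays to a common scale. The design of the array is annotated on hg18. Both arrays were on 1 slide.

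Spots with an outlier flag on either array were left out (2 of the 37 endothelial spots). The log2 of the processed signal, less that of the array's 75th percentile, was averaged over the spots of a probe. A probe counted as detected when 50% or more of its spots were well above background. Probes detected on both arrays were averaged to give a gene's value. Deposited spot errors were averaged over the spots of a probe, combined over the 2 arrays as a root sum of squares, then averaged over probes. Such errors do not shrink with more spots: PECAM1 had 0.22 over 20 spots and EGFL7 0.21 over 1. For a gene detected on 1 array, the bound is set against the higher of the other array's lowest detected signal (-4.29 pubertal, -4.37 infant, log2) and the probe's own. Bounds make no allowance for the spot error. For a list, summed levels add 1 linear level per gene and array, the mean over the gene's probes detected on either array. A probe detected on 1 array alone thus enters the other array's sum with its undetected signal. The brightest genes weigh most in such a sum, so it need not describe the list as a whole.

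The members and the 14 lists (167 names) were chosen with earlier results of these data known. Named are all members, up to 4 genes per list with the largest differences and some markers whatever their values, while others were chosen after their values were seen. No test was made with 1 array per group. Precision is limited by how few arrays there are. Python 3.11.15, pandas 2.3.3, statsmodels 0.14.6 and limma 3.58.1 were used. The functions were tested on simulated data, with changes only in genes detected on both arrays. Detection on 1 array alone and the lower bounds were not covered. Alternatives changed background correction, scaling, detection, combination of probes and spots kept. Disturbed areas, where neighbouring spots differed strongly between arrays, held 1757 spots (3.32%).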

Additional observations from a re-analysis of the deposited data

How the results depend on the processing

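Alternatives were run for background correction, scaling, detection filter, combination of probes and spots kept. In each of 12 alternatives the differences of PECAM1, ESAM, ENG, VWF and EGFL7 were positive, from 0.94 to 2.43 for PECAM1, 1.14 to 2.39 for EGFL7, 0.58 to 1.98 for VWF, 0.16 to 1.31 for ENG and 0.07 to 1.25 for ESAM. The number of genes at least 2-fold higher was 1 with normexp correction, 5 with spike-in scaling and, with a 4-fold threshold chosen after seeing the data, 0. Spike-in scaling, which adds 0.99 to every difference by construction, gave medians of 1.98 for the 5 measured genes and 1.16 for the wider endothelial list. With no filter on dim probes all 10 genes counted as detected on both arrays and 0 on the pubertal array alone, with a median of 0.55. Values that carry no information then enter, such as 0.18 for CDH5 from signals of 4.49 pubertal and 3.73 infant. The weaker detection flag gave 7 genes on both arrays, KDR and FLT1 added, and 2 on the pubertal array alone. The median of all probes gave 0.58, through VWF, whose undetected probe then enters at 0.18, likewise without information. The TEK bound ranged from 0.42 to 3.36 over 11 alternatives. With the weaker flag, which gave 3.36, TEK's own infant signal of 3.73 was the reference. That signal was not significant against background, so 3.36 is no firm bound. The next highest was 2.04, with spike-in scaling. Over all genes, those 2-fold higher or lower numbered 551 and 568 with normexp correction, 1708 and 1364 with the weaker flag, 2080 and 1486 with no filter and 6455 and 125 with spike-in scaling, against 1041 and 900. No paired analysis was possible because each group had 1 array, and no replicate could be left out. Signals near background limit ESAM, TEK, KDR and FLT1. For the other changes the cause was not tested.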

Other observations

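Lymphatic vessel markers were sparse and had negative differences in the main setting, with a median of -0.54 that became 0.46 with spike-in scaling. Of 5 on the array, 3 were measured, with a summed level of 1.35 in pubertal and 3.73 in infant cells. Podoplanin, PDPN, was at -1.69 and the chemokine CCL21 at -0.54. The receptor FLT4 was at -0.25 ± 0.26 (software error), less than its error, and was negative in 8 of 12 alternatives. PDPN had the highest level of the list (0.03 pubertal, 1.72 infant), so it weighs most in the sums. PROX1, the transcription factor that sets lymphatic identity, was detected on neither array.

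The vasoconstrictor peptide EDN1 and the adaptor NOSTRIN, both used as endothelial markers, were detected on both arrays and were at -0.10 and 0.27 on the log2 scale. NOSTRIN had a level of 4.59 in pubertal and 4.32 in infant cells. The probes of the transcription factor SOX17 disagreed in size. One was detected on both arrays, with a difference of 0.44, and the other on the pubertal array alone, where it was at least 5.56-fold higher. The anticoagulant receptors THBD and PROCR were at -0.62 and -0.58. These genes were chosen after their values were seen.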
